A study of Mus musculus with 18 samples.

Results

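The comparison described here is that of mouse CD8+ T cells given a guide RNA kit against Nr4a1, the gene for the nuclear receptor Nur77, and kept with 10 µM lithocholic acid (LCA) or without it. Its members are 6 of the 18 libraries of the series, chosen by their labels: 3 libraries labelled Nur77-KO without LCA (called control) and 3 labelled Nur77-KO at 10 µM (called LCA10). Naive CD8+ T cells had been isolated, edited with a CRISPR ribonucleoprotein, activated through CD3 and CD28 and then cultured overnight with the bile acid, so that editing and activation are common to both groups. The labels give the genotype as a knockout but also speak of a knockdown, and no mouse strain, sex or age is given. The 3 libraries at 50 µM LCA with the same guide, and the 6 libraries of cells with a scrambled guide at 0 and 10 µM, are used for comparison. The labels leave unsaid if a replicate is its own animal or culture, and the p-values then reflect only library-to-library spread, which may be technical.

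LCA is a secondary bile acid that gut bacteria make from chenodeoxycholic acid, and it can activate the vitamin D receptor and is toxic to cells at high doses. Nur77 is an orphan receptor of the Nr4a family, induced within hours of T cell receptor signalling, and it restrains CD8+ T cell activation. Interferon-stimulated genes, which recur below, are antiviral genes switched on by interferon receptor signalling, many of them through the interferon-stimulated response element in their promoters.

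The 6 libraries held 5073981, 5328029 and 5945518 counts in control and 4507973, 4788742 and 5312152 in LCA10, and 11651 genes had enough counts to be tested. The CD8+ T cell label was carried by both groups, as the summed level of 9 marker genes, Cd8a, Lck and the CD3 chains among them, was 4896 to 4928 CPM (counts scaled to library size) in control and 4467 to 4885 in LCA10. These summed levels did not overlap between the groups. Of those markers Cd8b1, the CD8 beta chain, was at 816, 779 and 767 CPM in control and 699.9, 634 and 587 in LCA10. Its change was -0.30 ± 0.08 as a log2 fold change ± standard error (edgeR adjusted p = 0.0722). None of the 9 was called by edgeR, but DESeq2's Wald test called Cd8b1 (adjusted p = 0.0354). Cd4 had no count in control and at most 0.894 CPM in LCA10, and the B cell factor gene Pax5 had at most 0.189 CPM in any of the 6. Myeloid markers summed to 22.3 to 28.7 CPM in control and 26.3 to 34.4 in LCA10, and red cell and platelet markers to 1.13 to 6.32 and 5.59 to 23.6 CPM, with LCA10 replicate 2 the highest through Pf4, Ppbp and Itga2b. No tested member of the CD4, B, NK and gamma delta T, myeloid or red cell and platelet lists was called. Chemosensory receptor genes (olfactory, vomeronasal, trace amine), a measure of background, summed to 95.0 to 114.5 CPM in control and 66.3 to 85.2 in LCA10. The share of counts on Rn45s, a ribosomal transcript, was 1.19 to 1.22% in control and 1.32 to 1.58% in LCA10. The groups overlapped in neither measure. The part of Rn45s in the results was not tested, and a fit with the receptor background as a covariate is given at the end. In bulk RNA, fewer cells of a type and less RNA per cell cannot be told apart. Libraries were numbered in the order of the groups, so any trend along that order and the treatment cannot be told apart.

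Nr4a1 itself (chromosome 15, 101253902 to 101274795, GRCm38) was at 12, 7.73 and 12 CPM in control and 10.7, 9.92 and 9.08 in LCA10. The groups overlapped, and the change was -0.10 ± 0.33 (edgeR adjusted p = 0.973). A gene count carries no record of an edit, and the knockout label is therefore unchecked here. The related receptor Nr4a2 was at 12.4, 11.7 and 12.3 CPM in control and 9.61, 8.44 and 12.5 in LCA10 (-0.25 ± 0.26, adjusted p = 0.887). Nr4a3, the other member of the family, was at 8.3, 3.39 and 4.06 and 11.8, 7.81 and 12.9 CPM (1.06 ± 0.31, adjusted p = 0.178), so none of the 3 was called.

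Few genes of these cells were called with 10 µM LCA. Under edgeR's quasi-likelihood test with Benjamini-Hochberg adjustment over all tested genes, 38 genes (0.326%) were called below an adjusted p of 0.05, 24 higher (0.206%) and 14 lower (0.120%). Genes induced by interferon and antiviral defence made up several of the largest rises (Ifi204, Isg15, Oasl1, Rtp4), beside the nuclear lamina gene Lmna and the cytokine gene Lta. The repressor Hic1, the sterol exporter Abcg1 and the purinergic channel P2rx4 fell most. Only 8 of the 38 changed at least 2-fold, 5 higher and 3 lower, and the median change over all tested genes was -0.00. Without adjustment 910 genes had p under 0.05, and DESeq2's Wald test called 65 genes, 39 higher and 26 lower, which included all 38. Levels are given as CPM scaled by TMM, in the order of replicates 1, 2 and 3. Having no overlap between groups was part of the rule for naming most called genes, so it is no added support for a call. Of the 11651 tested genes, 903 were higher and 844 lower without overlap.

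**Figure D1:**
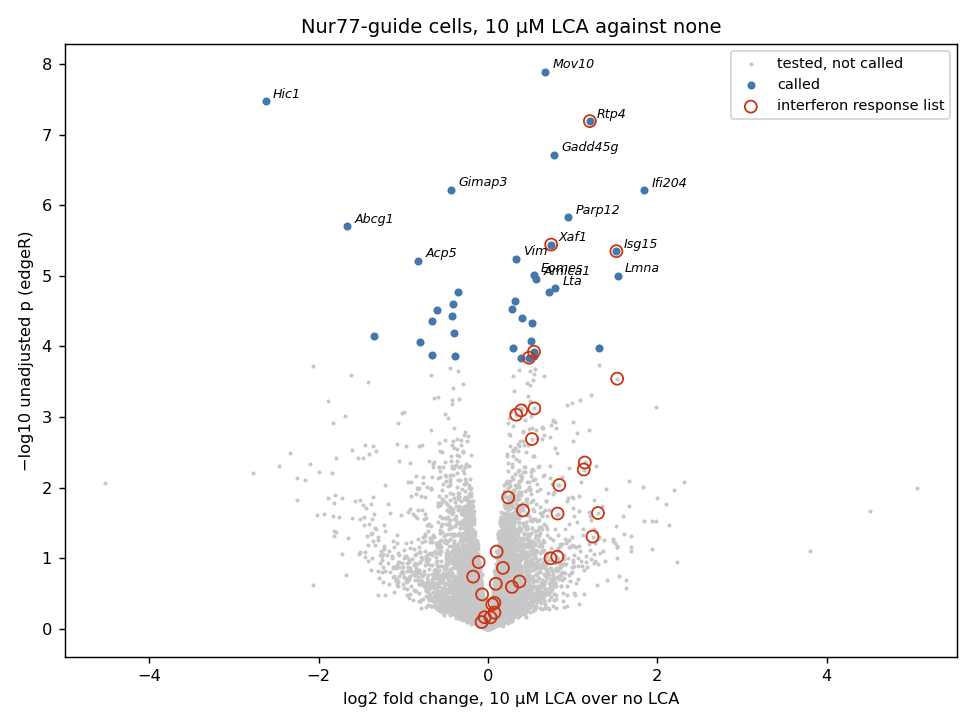
Volcano plot of the 11651 tested genes, with the log2 fold change of 10 µM LCA over no LCA on the x axis and -log10 of the unadjusted edgeR p on the y axis. Blue points are the 38 called genes, red rings the 34 tested members of the interferon response list, most of which lie right of 0, and the 16 called genes of smallest p are named.

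Interferon response genes had the median change furthest from 0 among the lists that are not cell type markers. Of the 34 tested members of this list 5 were called higher and none lower, against 0.206% of all tested genes called higher, and the median change was 0.40 beside -0.00 over all genes. A positive change was seen in 29 of the 34, against 5783 of all 11651 tested genes. At an unadjusted p under 0.05, 18 of the 34 were higher, against 4.18% of all tested genes. For 22 of the 34, every LCA10 library was above every control library, which held for 7.75% of all tested genes. For 3 of the 34 (Gbp2, Irf1 and Igtp), every LCA10 library was below every control, as for 844 of all 11651 tested genes. The list was chosen with earlier results of these data known.

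Rtp4, a chaperone-like protein induced by interferon, was at 30.6, 35.5 and 30.9 CPM in control and 80.2, 82.9 and 60.7 in LCA10 (chromosome 16, 23520219 to 23614222, GRCm38). Every LCA10 library stood above every control library, and the rise was 1.20 ± 0.17 (adjusted p = 0.00025). Isg15, the ubiquitin-like modifier that is attached to proteins in infected cells, went from 11.5, 22.4 and 15.6 to 44.7, 64.6 and 32.9 CPM (1.52 ± 0.25, adjusted p = 0.00521). Its LCA10 libraries were spread, with replicate 2 highest, but the lowest of them was still above the highest control. Xaf1, an antagonist of the apoptosis inhibitor XIAP, went from 54.1, 66.9 and 56.3 to 94.5, 114 and 88.9 CPM (0.75 ± 0.13, adjusted p = 0.00467). Ddx58, which encodes the RNA sensor RIG-I, went from 70.3, 76.2 and 77.8 to 115, 119.9 and 92.3 CPM (0.54 ± 0.12, adjusted p = 0.042). Trim30a, a ubiquitin ligase of a family with close copies among which reads may be shared, went from 136, 133 and 133 to 187, 223 and 154 CPM (0.49 ± 0.11, adjusted p = 0.0451). Replicate 3 was the lowest of the LCA10 libraries for all 5, and the groups overlapped for none of them. Each of the 6 libraries was then left out in turn, and Rtp4 kept its call in all of these fits. Isg15 lost its call without control replicate 3 (adjusted p = 0.0701), while Xaf1 lost its call without control replicate 3 (adjusted p = 0.061) and without LCA10 replicate 2 (adjusted p = 0.121). Ddx58 lost its call without control replicate 1, 2 or 3, and without LCA10 replicate 1 or 2 (adjusted p = 0.135 to 0.362), and Trim30a lost its call without control replicate 1, 2 or 3, and without LCA10 replicate 1 or 2 (adjusted p = 0.142 to 0.503).

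Further genes of antiviral defence lay outside the list and were called. Ifi204, a cytosolic DNA sensor of a family of near copies on chromosome 1, had the largest rise among the called genes, from 6.52, 6.22 and 7.61 to 18.5, 36.5 and 18.5 CPM (1.85 ± 0.30, adjusted p = 0.0012). Replicate 2 stood well above the other LCA10 libraries, which were themselves above every control, and reads of Ifi204 may be shared with its relatives. Oasl1, an oligoadenylate synthetase-like protein that restrains Irf7 translation, was at 9.48, 6.79 and 4.56 CPM in control and 15.2, 17.5 and 18.7 in LCA10 (1.32 ± 0.30, adjusted p = 0.0387). Parp12, an ADP-ribosyltransferase with antiviral activity, was nearly even across the controls at 37.5, 37.2 and 37 CPM and stood at 74.6, 84.6 and 56.8 in LCA10 (0.95 ± 0.16, adjusted p = 0.00248). Both genes had every LCA10 library above every control. Mov10, an RNA helicase that restricts retroviruses and retroelements, had the smallest p of all genes and went from 134, 126 and 132 to 175, 229.8 and 222 CPM (0.68 ± 0.09, adjusted p = 0.000151). Herc6, the mouse ligase for ISG15 and chosen for mention after its values were seen, went from 63, 70.7 and 76.1 to 96.1, 103 and 101 CPM (0.51 ± 0.12, adjusted p = 0.0339). The groups did not overlap for any of these genes. When libraries were left out in turn, Mov10 kept its call in all of these fits, Ifi204 lost its call without LCA10 replicate 2 (adjusted p = 0.0525), and Parp12 lost its call without LCA10 replicate 2 (adjusted p = 0.0661). Oasl1 lost its call without control replicate 2 or 3, and without LCA10 replicate 1, 2 or 3 (adjusted p = 0.0662 to 0.371), and Herc6 lost its call without any 1 of the 6 (adjusted p = 0.0714 to 0.231).

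Many interferon list members that were not called had changes as large as called ones but with wider errors. Those given here were chosen after their values were seen. Oasl2, a paralog of Oasl1, was at 11.1, 18.7 and 15.4 CPM in control and 36.6, 55.3 and 38.4 in LCA10 (1.53 ± 0.33, adjusted p = 0.0653). Ifit3, which binds foreign RNA with its partner Ifit1, was at 11.1, 14.3 and 13.2 and 31.5, 36.7 and 27.1 CPM (1.30 ± 0.50, adjusted p = 0.517). For both, every LCA10 library was above every control. Irf7, the factor that amplifies type I interferon production, was at 48.6, 61.5 and 37.9 and 92.5, 104 and 68.3 CPM (0.84 ± 0.28, adjusted p = 0.38). Usp18, which removes ISG15 and dampens the interferon receptor, was at 85.9, 83.2 and 74 and 146, 168 and 116 CPM (0.82 ± 0.32, adjusted p = 0.517). Irf7 and Usp18 did not overlap between groups either. The chemokine gene Cxcl10 was at 11.5, 10.4 and 11.2 and 28.2, 25.5 and 19.5 CPM (1.14 ± 0.35, adjusted p = 0.285), also without overlap.

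The list was not even. Its 8 guanylate-binding and immunity-related GTPases, which attack the vacuoles of intracellular microbes and respond strongly to interferon gamma, had changes between -0.17 and 0.09, and none had an unadjusted p under 0.05. Gbp2 was at 791, 827 and 806 CPM in control and 767, 677 and 703 in LCA10, lower without overlap (-0.17 ± 0.13, adjusted p = 0.801). Gbp4 was at 694, 742 and 684 and 750.0, 709 and 738 CPM (0.05 ± 0.07, adjusted p = 0.913). Irf1, another factor with a strong interferon gamma response, was at 555, 583 and 556 and 536, 524 and 513 CPM, also lower without overlap (-0.11 ± 0.07, adjusted p = 0.742). Over the other 26 members the median change was 0.55, within a range of -0.11 to 1.53. All 18 members higher at an unadjusted p under 0.05 were among these 26. This division was made after the values were seen. Ifng, the gene for interferon gamma, had 0, 3.39 and 0.845 CPM in control and 5.14, 5.91 and 7.38 in LCA10 (2.11 ± 0.78, adjusted p = 0.468). Its LCA10 libraries all lay above the controls, but at a low level and without a call.

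**Figure D2:**
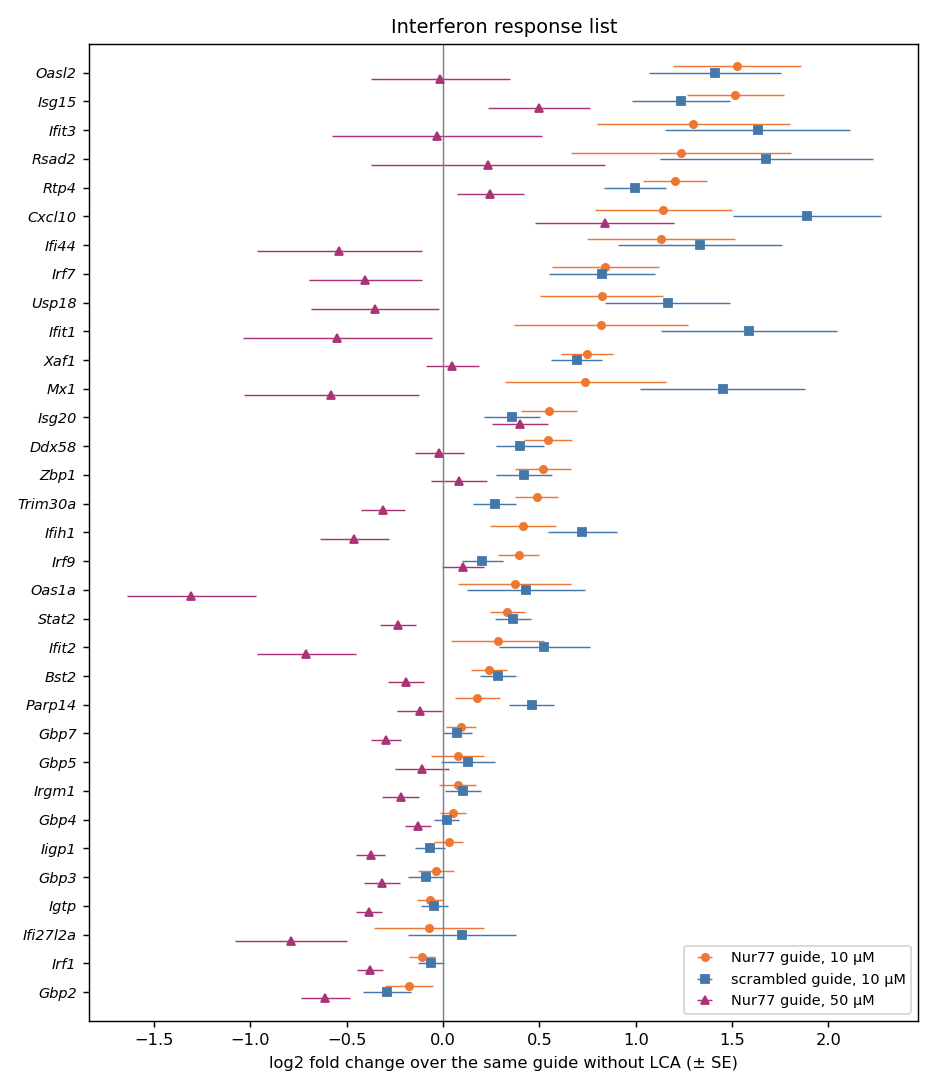
Log2 fold change ± SE of tested interferon list members for the Nur77 guide at 10 µM (orange circles), the scrambled guide at 10 µM (blue squares) and the Nur77 guide at 50 µM (purple triangles), each over its own guide without LCA. The orange and blue points of the upper genes lie together right of 0, the purple ones nearer to 0 or left of it, and the Gbp genes lie close to 0 at 10 µM.

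Promoter sequences are shown for Isg15 and Trim30a because they are called list members whose 250 bases before the start site hold the core of the interferon-stimulated response element. The motif searched was GAAANNGAAA or, on the other strand, TTTCNNTTTC, in RefSeq promoter windows of 300 bases (250 before and 50 after a start site, GRCm38.p6), and capitals mark each match. A match is a description of the letters and not a bound site.
Isg15 (chr4:156200819-156201068, minus strand): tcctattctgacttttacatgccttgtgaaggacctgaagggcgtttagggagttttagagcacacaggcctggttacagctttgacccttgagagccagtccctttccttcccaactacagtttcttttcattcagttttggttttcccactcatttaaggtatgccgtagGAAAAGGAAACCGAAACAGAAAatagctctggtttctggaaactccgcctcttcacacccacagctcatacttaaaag
Trim30a (chr7:104465194-104465443, minus strand): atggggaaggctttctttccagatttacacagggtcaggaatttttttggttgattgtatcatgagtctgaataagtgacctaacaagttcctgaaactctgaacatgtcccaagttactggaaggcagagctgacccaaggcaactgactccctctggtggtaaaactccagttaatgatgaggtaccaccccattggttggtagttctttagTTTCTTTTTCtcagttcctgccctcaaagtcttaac
The Isg15 stretch has 3 overlapping matches that begin 78 to 66 bases before the start site, and Trim30a has 1 that begins 36 bases before it. Over all tested genes with a window, 364 of 9307 (3.91%) held the motif. It was held by 17 of the 25 interferon list members with a window (68.0%), by 5 of 19 genes called higher and by 1 of 12 called lower. Ddx58 also held it, 2 bases after its start site, and the window of Xaf1, another called list member, did not. Of the 24 genes called higher 19 had a window, and Rtp4 and Ifi204 were among those without one, so they were not searched. The GTPases with changes near 0 included Gbp2, Gbp5, Gbp7, Igtp and Irgm1, and windows of all of these held the motif too. Among the genes called higher outside the list, Amica1 and Eomes held it, and the windows of Mov10, Herc6, Parp12, Oasl1 and Lmna did not.

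A few genes of T cell effector function and activation were called higher. Of 23 effector genes 2 were called higher and none lower (median 0.18), and of 33 genes induced by T cell receptor signalling 1 was called higher and none lower (median 0.19, with 8 higher and none lower at an unadjusted p under 0.05). Over all tested genes 0.206% were called higher, and 4.18% were higher at an unadjusted p under 0.05. Lta, which encodes the cytokine lymphotoxin alpha, was at 186, 187 and 170.4 CPM in control and 322, 338 and 285 in LCA10 (chromosome 17, 35203165 to 35205578, GRCm38). All LCA10 libraries were far above the controls, and the rise was 0.80 ± 0.13 (adjusted p = 0.0109). Eomes, a T-box factor of effector and memory CD8+ T cells, went from 89.7, 76.8 and 87.9 to 124, 129 and 117 CPM (0.54 ± 0.10, adjusted p = 0.00833). Dusp2, a phosphatase that switches off MAP kinases after T cell receptor signalling, went from 66.6, 68.1 and 63.4 to 88.7, 105 and 89.9 CPM (0.52 ± 0.11, adjusted p = 0.0208). Gadd45g, a stress sensor that activates p38 signalling in T cells, was at 109.8, 114 and 105 CPM in control and 192, 211 and 162 in LCA10 (0.78 ± 0.11, adjusted p = 0.000568). The groups did not overlap for any of these 4 genes. By contrast the granzyme gene Gzmb, by far the most abundant effector transcript, was at 6927, 6992 and 7577 CPM in control and 6644, 6788 and 6655 in LCA10 (-0.10 ± 0.18, adjusted p = 0.95). Each LCA10 library of Gzmb was below each control, but by little and without a call. After leaving out each library in turn, Gadd45g kept its call in all of these fits, and Lta lost its call without control replicate 3 (adjusted p = 0.0823) and without LCA10 replicate 2 (adjusted p = 0.117). Eomes lost its call without control replicate 2 or 3, and without LCA10 replicate 2 (adjusted p = 0.0517 to 0.123), and Dusp2 lost its call without control replicate 1, 2 or 3, and without LCA10 replicate 2 (adjusted p = 0.0784 to 0.291).

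The trafficking and signalling genes called higher were fewer. Fut7, the fucosyltransferase that builds selectin ligands, was at 37.3, 39.6 and 32.3 CPM in control and 58.3, 64.8 and 57.3 in LCA10 (0.73 ± 0.15, adjusted p = 0.011). Amica1, the junctional adhesion molecule JAML, went from 77.4, 73.9 and 79.8 to 113, 125 and 106 CPM (0.57 ± 0.11, adjusted p = 0.00863). Sh2b3, the adaptor LNK that dampens cytokine signalling, went from 40.5, 37 and 36.2 to 54.5, 59.3 and 52 CPM (0.55 ± 0.13, adjusted p = 0.0442). The LCA10 libraries lay above all controls for each. Sh2b3 overlaps the end of Atxn2 on the opposite strand, and no source used here says if counting was by strand. With libraries left out in turn, Fut7 lost its call without control replicate 3 (adjusted p = 0.174) and without LCA10 replicate 2 (adjusted p = 0.155). Amica1 lost its call without control replicate 2 or 3, and without LCA10 replicate 2 (adjusted p = 0.0558 to 0.155), and Sh2b3 lost its call without control replicate 1, 2 or 3, and without LCA10 replicate 1 or 2 (adjusted p = 0.0857 to 0.329).

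Lmna, Vim, Slc7a5 and Fth1 were also called higher. Lmna, which encodes the nuclear lamins A and C, was at 36.1, 31.5 and 46.8 CPM in control and 89.8, 141 and 102 in LCA10 (chromosome 3, 88481148 to 88509932, GRCm38). The lowest LCA10 library was above the highest control by a wide margin, and the rise was 1.53 ± 0.23 (adjusted p = 0.00833). Vim, the intermediate filament vimentin, was chosen after its values were seen and went from 1122, 1148 and 1114 to 1368, 1529 and 1368 CPM (0.33 ± 0.06, adjusted p = 0.006). Slc7a5, the large neutral amino acid transporter LAT1 and a target of the stress factor ATF4, went from 674, 674 and 708 to 828, 859 and 878 CPM (0.32 ± 0.07, adjusted p = 0.0141). It was the 1 called member of 48 tested ATF4 targets, of which 37 had a positive change (median 0.12). Among all tested genes 0.206% were called higher, and 5783 of 11651 had a positive change. Its heavy chain partner Slc3a2, named after its values were seen, was at 437, 417 and 386 CPM in control and 479.6, 531 and 513 in LCA10 (0.30 ± 0.07, adjusted p = 0.0618). The ATF4 target Trib3, a feedback regulator of the stress response, was at 61.2, 67.5 and 67.6 CPM in control and 85.8, 105 and 75.7 in LCA10 (0.44 ± 0.39, adjusted p = 0.863). Fth1, the ferritin heavy chain that stores iron, went from 1424, 1378 and 1361 to 1619.7, 1795 and 1639.6 CPM (0.28 ± 0.06, adjusted p = 0.0162) and was the 1 called member of 23 NRF2 targets (median 0.04). Fth1 has processed copies among which reads may be shared. On leaving libraries out, Lmna lost its call without control replicate 2 (adjusted p = 0.0609), and Vim lost its call without control replicate 3 (adjusted p = 0.0656) and without LCA10 replicate 2 (adjusted p = 0.155). Slc7a5 lost its call without control replicate 1, 2 or 3, and without LCA10 replicate 2 (adjusted p = 0.061 to 0.147), and Fth1 lost its call without control replicate 2 or 3, and without LCA10 replicate 2 (adjusted p = 0.102 to 0.291).

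Plec, Slco3a1 and Fmnl1 complete the 24 genes called higher and were named after their values were seen. Plec, the cytoskeletal linker plectin, was at 181, 180.1 and 177 CPM in control and 219, 224 and 265 in LCA10 (0.40 ± 0.09, adjusted p = 0.0451), and its start overlaps Parp10 on the same strand. Slco3a1, an organic anion transporter, went from 138, 150.1 and 138 to 174, 202 and 188 CPM (0.40 ± 0.09, adjusted p = 0.0195). Fmnl1, a formin that assembles actin in leukocytes, went from 374, 393 and 402 to 440.5, 487 and 502 CPM (0.29 ± 0.07, adjusted p = 0.0387). The calls of these genes were close to the threshold, and their libraries did not overlap. Across the fits without 1 library, Plec lost its call without any 1 of the 6 (adjusted p = 0.052 to 0.275). Slco3a1 lost its call without control replicate 1 or 3, and without LCA10 replicate 2 (adjusted p = 0.129 to 0.259), and Fmnl1 lost its call without control replicate 1, 2 or 3, and without LCA10 replicate 2 or 3 (adjusted p = 0.133 to 0.291).

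**Figure D3:**
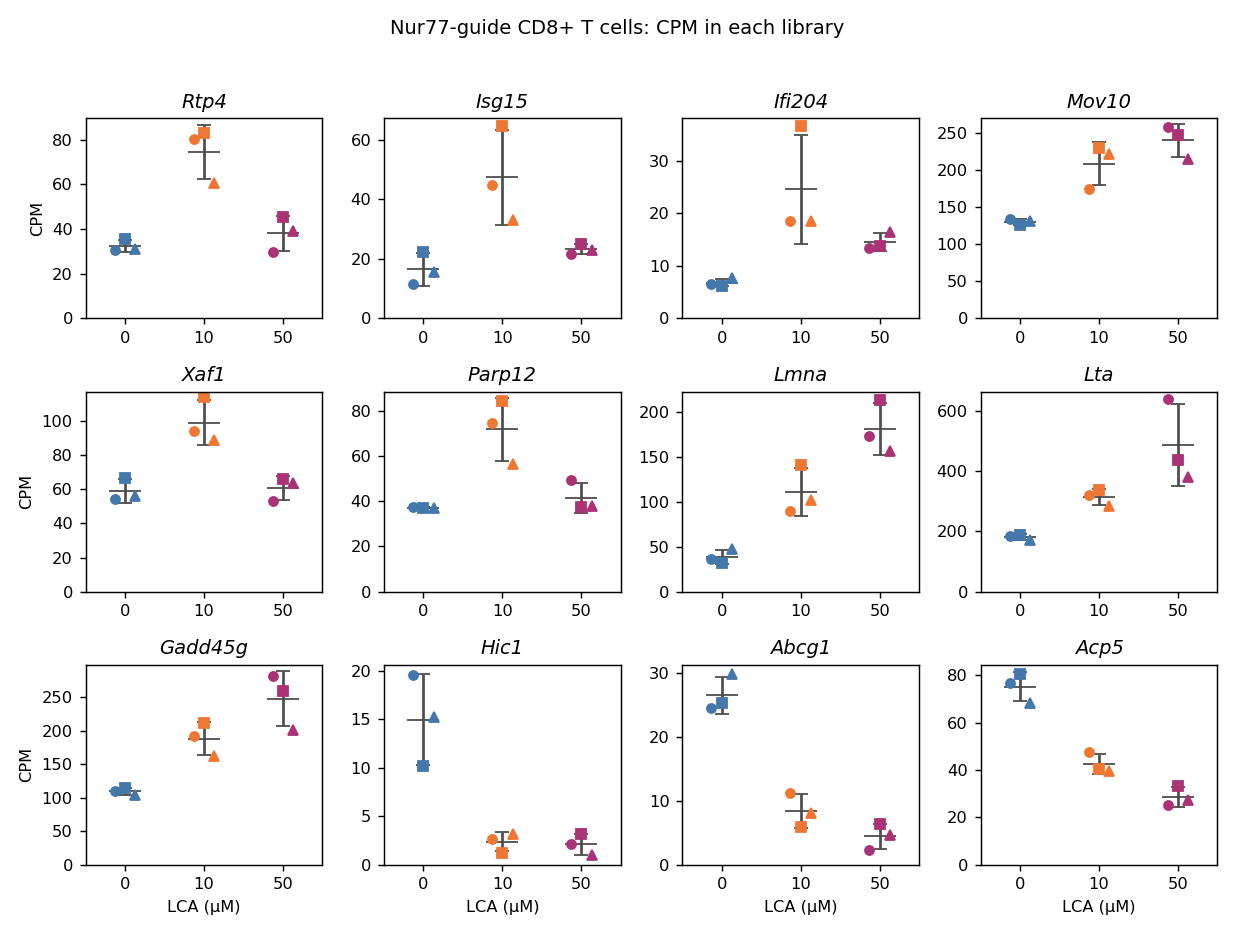
CPM of 12 called genes in each Nur77-guide library at 0, 10 and 50 µM LCA, with circles, squares and triangles for replicates 1, 2 and 3 and bars for the group mean ± SD (n = 3). Rtp4, Isg15, Xaf1 and Parp12 are highest at 10 µM, whereas Lmna, Lta and Gadd45g have higher means at 50 than at 10 µM, and Hic1, Abcg1 and Acp5 are lower at both doses than without LCA.

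The largest falls were those of Hic1, Abcg1, P2rx4 and Acp5, and the smaller fall of Ctsc is given with them. Hic1, a transcriptional repressor that retinoic acid induces in T cells of the gut, was at 19.6, 10.2 and 15.2 CPM in control and 2.68, 1.27 and 3.22 in LCA10 (chromosome 11, 75161377 to 75170255, GRCm38). The groups did not overlap, and the fall was -2.63 ± 0.37 (adjusted p = 0.000197). Abcg1, a sterol exporter and target of the liver X receptors, went from 24.5, 25.3 and 29.9 to 11.2, 5.91 and 8.14 CPM (-1.66 ± 0.29, adjusted p = 0.0029). It was the 1 called member of 11 tested liver X receptor genes, whose median was -0.02. Among all tested genes 0.120% were called lower. P2rx4, an ATP-gated cation channel, went from 9.48, 8.11 and 12.2 to 3.13, 3.17 and 5.3 CPM (-1.35 ± 0.30, adjusted p = 0.0294). Acp5, the tartrate-resistant acid phosphatase, went from 76.6, 80.5 and 68.3 to 47.4, 40.3 and 39.7 CPM (-0.82 ± 0.15, adjusted p = 0.006) and was the 1 called member of 25 lysosome genes (median -0.04). Ctsc, the protease cathepsin C that activates granzymes, went from 158, 169.7 and 176 to 128, 130.4 and 124 CPM (-0.40 ± 0.09, adjusted p = 0.0276). The groups did not overlap for any of them. With libraries left out in turn, Hic1 kept its call in all of these fits, and Abcg1 lost its call without LCA10 replicate 2 (adjusted p = 0.0661). Acp5 lost its call without control replicate 2 (adjusted p = 0.0615) and without LCA10 replicate 2 (adjusted p = 0.103). P2rx4 lost its call without control replicate 1 or 3, and without LCA10 replicate 1 or 2 (adjusted p = 0.0786 to 0.263), and Ctsc lost its call without control replicate 2 or 3, and without LCA10 replicate 1, 2 or 3 (adjusted p = 0.0865 to 0.223).

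Gimap3, Itgb7, Tfrc, Cd9 and Slco4a1 were also called lower. Gimap3, a GTPase of lymphocyte survival, was at 497, 509 and 524 CPM in control and 381, 348 and 400.2 in LCA10 (-0.44 ± 0.07, adjusted p = 0.0012). Itgb7, the integrin beta chain that pairs with alpha 4 or alpha E for homing to the gut, went from 739, 706 and 745 to 569, 552 and 599 CPM (-0.35 ± 0.07, adjusted p = 0.011). Tfrc, the transferrin receptor that brings iron into the cell, went from 537, 550.3 and 559 to 437, 357 and 444 CPM (-0.41 ± 0.08, adjusted p = 0.0147). Both of these were abundant, and each LCA10 library was below each control. The tetraspanin Cd9 went from 44, 46.2 and 58.7 to 33.3, 33.3 and 28.2 CPM (-0.66 ± 0.15, adjusted p = 0.0442). Slco4a1, an organic anion transporter, went from 65.2, 69.6 and 97.2 to 42.2, 42 and 62.4 CPM (-0.66 ± 0.14, adjusted p = 0.0202), with replicate 3 the highest within each group. None of these genes had overlapping groups. When libraries were left out in turn, Gimap3 lost its call without LCA10 replicate 2 (adjusted p = 0.0525). Itgb7 lost its call without control replicate 1 or 3, and without LCA10 replicate 1 or 2 (adjusted p = 0.0584 to 0.155), and Tfrc lost its call without control replicate 1, 2 or 3, and without LCA10 replicate 2 (adjusted p = 0.0515 to 0.266). Cd9 lost its call without any 1 of the 6 (adjusted p = 0.0527 to 0.471), and Slco4a1 lost its call without control replicate 3, and without LCA10 replicate 1 or 2 (adjusted p = 0.157 to 0.41).

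The last 4 genes called lower act inside the cell or are uncertain. Dtd1, which clears D-amino acids from transfer RNA, went from 64.4, 60.9 and 57.1 to 40, 38.4 and 41.8 CPM (-0.60 ± 0.12, adjusted p = 0.0162). Ak3, a mitochondrial GTP:AMP kinase, went from 129, 134 and 141 to 100.3, 91.4 and 109.7 CPM (-0.42 ± 0.09, adjusted p = 0.0185), and Cdc37l1 overlaps it on the opposite strand. Sumo3, a small ubiquitin-like modifier, went from 149, 151 and 158 to 113, 109.5 and 128 CPM (-0.39 ± 0.09, adjusted p = 0.0442). Each of these 3 was lower in every LCA10 library than in any control. Tg, the gene for the thyroid hormone precursor thyroglobulin, was at 38.5, 37 and 39.7 CPM in control and 21, 19.4 and 25.7 in LCA10 (-0.80 ± 0.18, adjusted p = 0.0339). The T cell adaptor gene Sla lies within Tg on the opposite strand, so without strand information reads of the genes cannot be told apart, and Sla itself changed by -0.36 ± 0.11 (adjusted p = 0.201). After leaving out each library in turn, Dtd1 lost its call without control replicate 1, 2 or 3, and without LCA10 replicate 1 or 2 (adjusted p = 0.0558 to 0.155), and Ak3 lost its call without control replicate 2 or 3, and without LCA10 replicate 1 or 2 (adjusted p = 0.0714 to 0.259). Sumo3 lost its call without control replicate 1, 2 or 3, and without LCA10 replicate 1 or 2 (adjusted p = 0.129 to 0.341), and Tg lost its call without control replicate 1, 2 or 3, and without LCA10 replicate 1 or 2 (adjusted p = 0.102 to 0.291).

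The remaining pathway and cell state lists held no called member. Of 26 genes of cholesterol synthesis and uptake 21 had a negative change (median -0.13), against 5868 of all 11651 tested genes. Among 17 fatty acid synthesis genes (median -0.15) the desaturase gene Scd1 was at 33.4, 26.8 and 38 and 16.1, 9.29 and 14 CPM, without overlap (-1.32 ± 0.38, adjusted p = 0.235). Of 6 tested bile acid receptors and partners, the retinoid X receptor gene Rxra was at 15, 10.2 and 8.11 CPM in control and 19.2, 32.3 and 25.2 in LCA10 (1.21 ± 0.30, edgeR adjusted p = 0.0958), and DESeq2 called it (adjusted p = 0.00605). Of 24 genes of the naive and memory state (median -0.03), 4 were lower at an unadjusted p under 0.05 and none higher, against 3.63% of all tested genes lower. Among those was Klf2, which keeps naive T cells recirculating and is named after its values were seen, at 42.7, 45.8 and 42.9 CPM in control and 31.3, 29.5 and 22.1 in LCA10 (-0.67 ± 0.16, adjusted p = 0.0617). Of 28 glycolysis and hypoxia genes 21 had a negative change (median -0.08), and of 37 respiratory chain subunits 30 had one (median -0.07). The proliferation gene Mki67 was at 469, 515 and 566 and 472, 475 and 567 CPM (-0.03 ± 0.09), and the medians of 30 mitosis and 30 DNA replication genes were -0.03 and 0.03. Medians of the chaperones of the endoplasmic reticulum (27 genes), heat shock proteins (13), cytosolic ribosomal proteins (43) MHC class I and immunoproteasome genes (16) and apoptosis genes (24) lay between 0.01 and 0.05. The 18 inhibitory receptors and exhaustion factors had a median of 0.08, with 12 positive. At an unadjusted p under 0.05, 1 of them was higher (Socs1) and 3 were lower (Ctla4, Btla and Vsir). Of all tested genes 4.18% were higher and 3.63% lower at that level. The 20 STAT5 targets had a median of 0.10 and the 19 p53 targets one of -0.13.

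**Figure D4:**
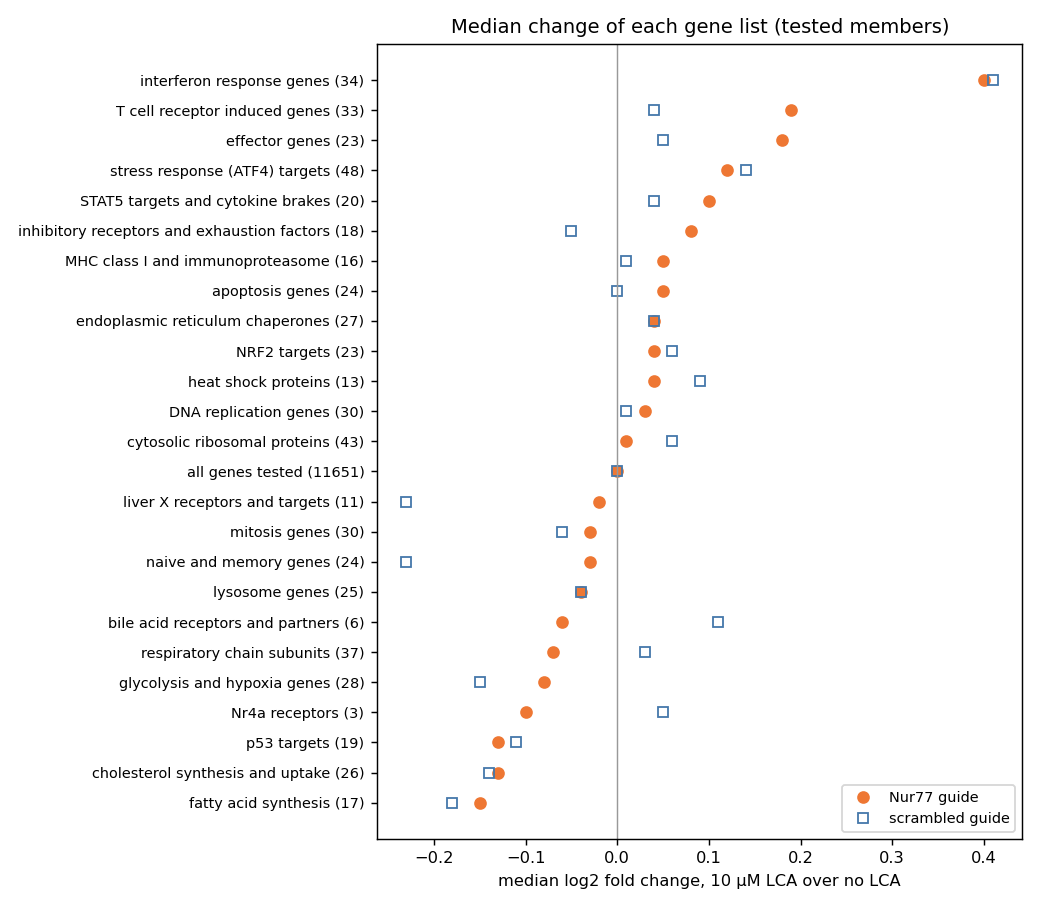
Median log2 fold change of 10 µM LCA over no LCA for each gene list other than the cell type markers and the genes led by the 50 µM response (number of tested members in brackets), for the Nur77 guide (orange circles) and the scrambled guide (open blue squares). The interferon list lies at 0.40 and 0.41, and the other lists plotted lie closer to the value of all genes tested.

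The same 6 groups allow the response to be set beside that of cells with the scrambled guide, which shares no library with it. There 45 genes were called (0.386%), 25 higher and 20 lower. Both guides called 22 genes, 14 higher and 8 lower, which is 57.9% of the Nur77-guide calls and 48.9% of the scrambled-guide calls, and all 38 Nur77-guide calls had the same sign in both. Across all tested genes, which are not independent replicates, the fold changes had a Pearson r of 0.182. The interferon list had a median of 0.41 with the scrambled guide and 4 members called higher, where 0.215% of all tested genes were. Rtp4 rose by 1.00 ± 0.16 there (adjusted p = 0.00157), Isg15 by 1.23 ± 0.25 (adjusted p = 0.0255) and Lmna by 1.58 ± 0.26 (adjusted p = 0.012). Hic1 changed by -2.08 ± 0.33 (adjusted p = 0.00125) and Gimap3 by -0.53 ± 0.07 (adjusted p = 0.000198), and both fell. Some Nur77-guide calls had small changes with the scrambled guide, such as Dtd1 at -0.10 ± 0.12 (adjusted p = 0.937), Dusp2 at 0.11 ± 0.11 (adjusted p = 0.912) and Fmnl1 at 0.04 ± 0.07 (adjusted p = 0.962), picked after their values were seen.

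**Figure D5:**
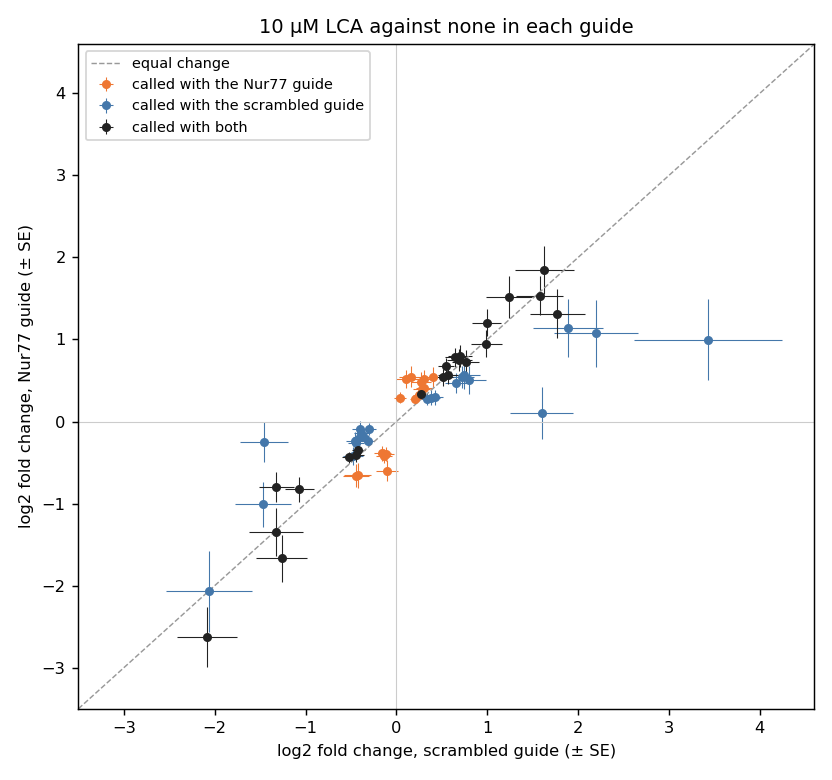
Log2 fold change ± SE of 10 µM LCA over no LCA with the scrambled guide (x axis) and the Nur77 guide (y axis) for every gene called with either, with a dashed line of equal change. The 22 genes called with both (black) lie near the line, and all 38 Nur77-guide calls lie in the quadrants of equal sign.

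The difference between the guides was tested directly as the contrast of both responses. No gene was called by edgeR or by DESeq2, and 382 genes had an unadjusted p under 0.05. Thus no gene was shown to respond to 10 µM LCA differently with the Nur77 guide. The median standard error of the difference was 0.217, so that small differences were not detectable and larger ones could also be missed. The smallest p among genes with a mean of at least 5 CPM over the 18 libraries was that of the platelet integrin gene Itga2b, whose change with the Nur77 guide exceeded that with the scrambled guide by 3.63 ± 0.84 (adjusted p = 1). With the Nur77 guide Itga2b was at 1.19, 0.377 and 1.52 CPM in control and 1.12, 6.96 and 1.51 in LCA10 (1.59 ± 0.67). Its level in those LCA10 libraries rests on replicate 2. With the scrambled guide it went from 11.8, 12.6 and 12.3 CPM without LCA to 4.06, 4.24 and 0.586 at 10 µM (-2.04 ± 0.51). The difference thus holds a fall with the scrambled guide as well as the change with the Nur77 guide. The amino acid transporter gene Slc7a6 (-0.62 ± 0.17), the kinase gene Pim3 (-0.49 ± 0.14), Gzf1 (-0.76 ± 0.22) and Lrp12 (0.72 ± 0.21) followed, all at an adjusted p of 1. Nr4a3 and Egr1, picked after their values were seen, changed by 1.06 ± 0.31 and 1.01 ± 0.28 with the Nur77 guide and by 0.05 ± 0.32 and 0.06 ± 0.27 with the scrambled guide, and none of these was called.

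Set beside 50 µM LCA with the same guide, the genes fell into different patterns, and since both doses share the control libraries the values are only given side by side. Rtp4 changed by 0.25 ± 0.17 at 50 µM, where its libraries were at 29.8, 45.4 and 39.3 CPM, against 1.20 ± 0.17 at 10 µM. Xaf1 changed by 0.05 ± 0.14, Oasl1 by -0.13 ± 0.33, Ddx58 by -0.02 ± 0.13 and Trim30a by -0.31 ± 0.11 at the higher dose, which placed each near or below its control level. Lmna, at 173, 213 and 157 CPM, changed by 2.24 ± 0.23 at 50 µM, Lta by 1.42 ± 0.13 and Gadd45g by 1.17 ± 0.11, more than at 10 µM. Other antiviral genes lay above their control level at 50 µM, with Ifi204 at 1.09 ± 0.31, Mov10 at 0.88 ± 0.09, Cxcl10 at 0.84 ± 0.36, Isg15 at 0.50 ± 0.27 and Isg20 at 0.40 ± 0.15. Among genes that fell, Hic1 was low at both doses, with 2.15, 3.17 and 0.982 CPM at the latter (-2.82 ± 0.38). Abcg1 changed by -2.54 ± 0.31, Acp5 by -1.39 ± 0.16, Gimap3 by -0.88 ± 0.07 and Tfrc by -0.75 ± 0.08 at 50 µM, all further from control than at 10 µM. The difference between the doses was not tested.

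Of 16 tested genes that led the 50 µM response in earlier results, Lmna was called higher and Hic1 and Abcg1 lower at 10 µM. Among all tested genes 0.326% were called in either direction. The list was chosen with these data known and both doses share the control libraries, so the count is not independent of the choice. Cth, which makes cysteine, was at 5.53, 6.22 and 8.28 CPM in control, 10.5, 11.6 and 10.8 at 10 µM and 123, 23.4 and 24.7 at 50 µM (0.70 ± 0.68 and 3.07 ± 0.61). The stress gene Nupr1 was at 5.14, 9.62 and 8.28, 7.82, 12 and 7.38 and 39.3, 15.8 and 16.7 CPM in the same order (0.23 ± 0.35 and 1.62 ± 0.33). The actin-severing gene Scin was at 3.75, 2.45 and 3.38, 3.8, 5.06 and 7.76 and 75.3, 6.34 and 13.5 CPM (0.80 ± 0.88 and 3.28 ± 0.79). None of these 3 was called at 10 µM, and replicate 1 at 50 µM stood above the other 2 for each. Changes at 10 and 50 µM were 0.44 ± 0.39 and 1.76 ± 0.38 for Trib3, -0.20 ± 0.57 and 1.85 ± 0.50 for the lipoprotein receptor gene Vldlr, 1.21 ± 0.30 and 1.89 ± 0.29 for Rxra and 2.11 ± 0.78 and 3.01 ± 0.74 for Ifng. They were -1.32 ± 0.38 and -2.92 ± 0.44 for Scd1, -0.82 ± 0.30 and -2.85 ± 0.37 for Itih5, -0.61 ± 0.34 and -1.94 ± 0.39 for the ADP-ribosyltransferase gene Art2b and -1.05 ± 0.32 and -1.87 ± 0.34 for the fucosyltransferase gene Fut4. The values were -0.39 ± 0.25 and -1.68 ± 0.27 for the phospholipid transfer gene Pltp and -0.21 ± 0.31 and -1.76 ± 0.35 for the tetraspanin gene Tspan2.

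The number of calls depended on the libraries in the fit. Without LCA10 replicate 2 it was 6 (Gadd45g, Hic1, Isg15, Lmna, Mov10 and Rtp4), without control replicate 3 it was 10 and without control replicate 2 it was 17. Without 50 µM replicate 1, which is outside the comparison but enters the shared estimate of spread, it was 96 and included all 38. With receptor background as a covariate it was 56, of which 36 were among the 38. The sign of all 38 was the same in all 14 other fits. These fits reuse the same counts, and groups without overlap leave little room for a change of sign, so this is no separate support.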

How the data were processed

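RNA sequencing of 18 libraries (6 groups of 3) gave 1 table of raw counts for 24537 gene symbols. The counts are whole numbers as the authors deposited them, not normalized. The submitters' processing notes name STAR, HOMER and DESeq2 along with 2 mouse build names, GRCm38 and mm10; neither versions nor roles are stated. Trimming, strand and filters are not given in the sources used here. Libraries held 4113713 to 5945518 counts.

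Groups came from the labels. All 18 libraries entered 1 model with a mean per group in edgeR 4.0.16 (R 4.3.3): filterByExpr by group, which left 11651 genes, TMM scaling, robust quasi-likelihood F tests and Benjamini-Hochberg adjustment, called below 0.05. Contrasts were 10 µM LCA against none with each guide, their difference, and 50 µM for values only. CPM are TMM-scaled counts. Named genes were Nr4a1, called genes of at least 5 CPM with no overlap between groups (the 15 highest and 15 lowest changes), up to 2 called members each way of each of 31 gene lists or the 2 most abundant, genes that led the 50 µM response, and the 5 smallest p-values of the difference. The comparison and the lists were chosen with earlier results of these data known. Alternatives were DESeq2 1.42.0, its size factors, other filters, a fit of the compared libraries alone, a replicate block, a receptor background covariate and each library left out. The code was tested on simulated data. Coordinates and promoters are from RefSeq (GRCm38.p6), and overlapping genes from GENCODE M21. A few list members count in the list values but are not reported here by name.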

Additional observations from a re-analysis of the deposited data

How the results depend on the processing

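The direction of all 38 called genes held under all 14 alternatives, but these reuse the same counts of genes whose groups did not overlap. The number of calls did not hold, and Gadd45g, Hic1, Mov10 and Rtp4 were called under every alternative. For the Nur77 guide the count was 65 with DESeq2, 103 with no filter and 123 in a fit of the compared libraries alone, and 6 to 96 with 1 library left out. For the scrambled guide, where 45 were called, it was 76, 104 and 136 under the same 3, 80 with receptor background as a covariate, and 4 to 111 with 1 library left out. For the difference between guides it was 0 throughout except 3 with no filter (Itga2b, Ngp and Thbs1) and 1 (Thbs1) in the fit of the compared libraries alone. These are genes of platelets or neutrophil granules. Among the compared Nur77-guide libraries LCA10 replicate 2 had the highest summed platelet markers. Itga2b also fell with the scrambled guide (-2.04 ± 0.51). The cause of these changes was not tested.

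With the replicate number as a block the Nur77 guide gave 38 calls, 35 of them shared. Same-numbered deviations correlated at 0.034, 0.002 and 0.088 over genes, and differently numbered ones at -0.068 to 0.034. No clear pairing by replicate number was seen, but these correlations cannot exclude shared animals or cultures. Over the named genes and alternatives, 1182 values were counted as the same. These were called in both fits, or uncalled in both with a shift below the standard error. Of the others 94 lost their call, 23 gained one, 14 were uncalled with a larger shift and 0 changed sign where called. At 4113713 to 5945518 counts a library, genes near 5 CPM rest on few counts, which limits calls among them.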

Other observations

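Antiviral genes also stood just outside the threshold in the Nur77-guide cells at 10 µM. Ddx60, a helicase that aids RNA sensing, changed by 1.32 ± 0.31 (edgeR adjusted p = 0.0544) and by 1.31 ± 0.32 with the scrambled guide (adjusted p = 0.061). Oas3, an oligoadenylate synthetase, changed by 0.56 ± 0.13 (adjusted p = 0.0577) and the RNA-editing enzyme gene Adar by 0.37 ± 0.09 (adjusted p = 0.0581). Slfn8, a member of the Schlafen family, changed by 0.54 ± 0.13 (adjusted p = 0.0613) and was called with the scrambled guide at 0.72 ± 0.13 (adjusted p = 0.00413). Dntt, the terminal transferase of immature lymphocytes, changed by -2.07 ± 0.49 (adjusted p = 0.0544), and fell by 2.06 with the scrambled guide (adjusted p = 0.0338). The groups did not overlap for any of these 5 genes, which were picked after their values were seen.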
